A study of Sus scrofa with 20 samples.

Results

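The vitamin D and calcium handling genes described here are CYP24A1, CYP27B1, VDR, RXRA, S100G and TRPV6, 6 of the 30345 gene rows measured in pig uterus. They were chosen by gene name, with earlier results of these data known, among them the comparison of inseminated with non-inseminated sows. No threshold was set on their values. Each name matched 1 gene row, with gene identifiers 397145, 397055, 396628, 397306, 397265 and 100171400 in that order. All 6 passed the filter on low counts, as did 17745 of all gene rows. Their levels and differences against the non-inseminated sows are therefore a description, and no p-value is given for them in those comparisons. Comparisons among the inseminated groups and the other genes of the pathway carry adjusted p-values.

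Vitamin D acts as a hormone after it has been hydroxylated in sequence, the last activating step being made by the enzyme CYP27B1. The active form binds the vitamin D receptor VDR, which pairs with a retinoid X receptor such as RXRA on DNA. CYP24A1 breaks the active hormone down and is itself one of the genes VDR switches on most strongly. In epithelia that move calcium, the channel TRPV6 lets calcium enter the cell and the small buffer protein S100G (calbindin-D9k) carries it across the cytosol. In the uterus both are known to respond to ovarian steroids as well.

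The uterus of 20 sows was sequenced, 1 library for each sow, 6 days after estrus began. All sows were Large White by Landrace crosses recorded as wild type, with a mean parity of 3.53 ± 1.12. CONTROL sows (n = 5) were not inseminated. The FR1 sows (n = 5) received only the sperm-rich fraction of the boar ejaculate, the FR2 sows (n = 5) the rich and intermediate fractions, and the FR3 sows (n = 5) the rich, intermediate and poor fractions. Semen came from 3 Pietrain boars aged about 32 months, and the sows were inseminated 2.53 ± 0.74 times on average. No group received a mock or sperm-free insemination, and embryo status and the boar used for each sow are not in the labels, so semen and early pregnancy cannot be told apart in any comparison with CONTROL.

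Library totals ran from 33 to 62.9 M counts. Levels are CPM, counts scaled to a common library total after TMM adjustment, so 1 count is worth 0.0161 to 0.0303 CPM. Markers of uterine epithelium, stroma, smooth muscle, macrophages and endothelium were above 0 in every library. Some libraries stood apart. Summed smooth muscle markers were 1092 CPM in CONTROL_1, while the remaining controls held 14695 to 32662 CPM. FR1_1, FR1_4, FR2_3 and FR3_4 held 1741 to 2220 CPM of summed epithelium markers, against 2990 to 6741 CPM in the other 11 inseminated libraries and 4754 to 7985 CPM in CONTROL. Between CONTROL and the 15 inseminated libraries, 7 of 15 epithelium markers were called lower and 0 higher, and 2 of 10 stromal markers were called higher and 0 lower (edgeR). Over all 17745 tested genes, 1455 were called lower and 510 higher. In the epithelium list KRT19, GRHL2 and FOXA2 had positive log2 differences that were not called (0.21, 0.84 and 0.99).

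CYP24A1, the enzyme that inactivates vitamin D, was high in 4 of 5 non-inseminated uteri and at or near 0 in the other libraries. In CONTROL_1 to CONTROL_5 it stood at 36.1, 12.8, 66.3, 45.0 and 0.278 CPM. In FR1 it stood at 0, 0.286, 0.174, 0.0220 and 0 CPM. In FR2 it stood at 0, 0.168, 0, 0.267 and 0 CPM, and in FR3 at 0.137, 0, 0, 0 and 0.212 CPM. The first 4 controls lay above every inseminated library, whereas CONTROL_5 fell within the FR1 range, just under FR1_2. Behind these levels are 7279 counts over the 5 controls, 12 of them in CONTROL_5, against 26 counts over FR1, 18 over FR2 and 13 over FR3. Of the 15 inseminated libraries, 8 had no count at all. The gene passed the filter on low counts through its counts in CONTROL.

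Group means of CYP24A1 were 32.1 ± 26.2 CPM in CONTROL, 0.0964 ± 0.129 in FR1, 0.0870 ± 0.124 in FR2 and 0.0698 ± 0.0992 in FR3 (SD, n = 5 each). The fitted log2 difference from CONTROL was -8.58 ± 0.92 over all inseminated sows (SE), and -8.24 ± 1.46, -8.56 ± 1.49 and -8.95 ± 1.53 in FR1, FR2 and FR3. Leaving out any 1 library kept the pooled value between -8.93 and -8.15. In whole tissue, fewer cells of a type and less RNA in each cell cannot be told apart. The 15 epithelium markers had a median fitted log2 difference of -0.92 over all inseminated sows. Their sum had a median of 5603 CPM in CONTROL, 3631 in FR1, 3307 in FR2 and 6073 CPM in FR3, and stood at 5148 CPM in CONTROL_5, inside the range of the other controls. The part of epithelium in the CYP24A1 difference was not tested.

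**Figure D1:**
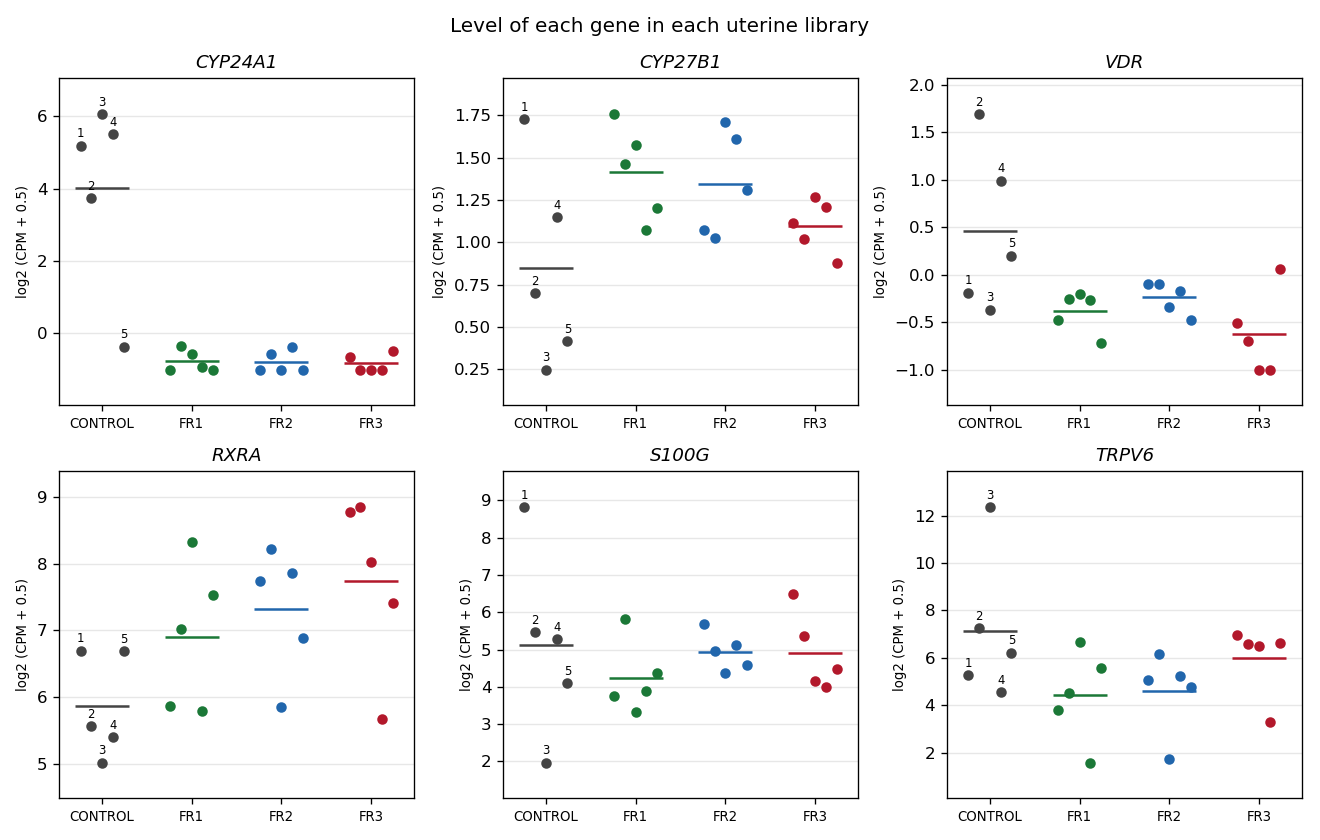
Each panel plots 1 gene, with log2 (CPM + 0.5) on the y axis and the 4 groups of 5 libraries on the x axis; points are libraries, horizontal lines are group means of the log2 values, and numbers mark the CONTROL columns. CYP24A1 is high in 4 of 5 controls, while the high S100G and TRPV6 means of CONTROL each include 1 point far above the rest, CONTROL_1 at 452 CPM and CONTROL_3 at 5273 CPM.

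CYP27B1, which makes the active hormone, was a low transcript that ran from 0.688 to 2.88 CPM over the 20 libraries. Its level in CONTROL was 2.81, 1.12, 0.688, 1.72 and 0.834 CPM, in FR1 2.88, 2.25, 2.48, 1.60 and 1.80 CPM, in FR2 1.61, 1.54, 2.78, 2.55 and 1.97 CPM, and in FR3 1.66, 1.53, 1.91, 1.81 and 1.33 CPM. CONTROL_2, CONTROL_3 and CONTROL_5 lay below all 15 inseminated libraries, while CONTROL_1 was the second highest of the 20. Means were 1.43 ± 0.863 CPM in CONTROL and 1.98 ± 0.490 CPM over inseminated sows (SD, n = 5 and n = 15). The log2 difference of 0.45 ± 0.30 was 0.85 without CONTROL_1, and it was not called in either case. The activating and inactivating enzymes thus had opposite signs against CONTROL, with wide overlap between groups for CYP27B1 and 1 overlapping control for CYP24A1.

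VDR, the receptor, was low in every library. CONTROL held 0.377, 2.73, 0.275, 1.49 and 0.648 CPM, from 12 to 107 counts. FR1 held 0.216, 0.336, 0.370, 0.329 and 0.109 CPM, FR2 0.434, 0.432, 0.287, 0.389 and 0.219 CPM, and FR3 0.205, 0.114, 0, 0 and 0.546 CPM, from 0 to 20 counts. CONTROL_2, CONTROL_4 and CONTROL_5 lay above every inseminated library, and the other controls lay among them. The log2 difference was -2.11 ± 0.67 over all inseminated sows and -1.45 without CONTROL_2. VDR kept its sign but was called in only 9 of 26 alternative fits. Of the 3 controls highest in VDR, CONTROL_4 was also high in CYP24A1, whereas CONTROL_2 and CONTROL_5 were the controls lowest in it.

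RXRA, the partner of VDR and of several other nuclear receptors, was on average higher in inseminated sows. CONTROL held 103, 46.8, 32.0, 41.8 and 103 CPM. FR1 held 57.9, 129, 320, 54.8 and 184 CPM, FR2 214, 296, 57.4, 233 and 118 CPM, and FR3 436, 459, 260, 50.8 and 169 CPM. Of the inseminated libraries, 11 lay above every control, and the 4 that did not are those lowest in epithelium markers. Means were 65.3 ± 34.8 CPM in CONTROL, 149 ± 109 in FR1, 184 ± 95.1 in FR2 and 275 ± 174 CPM in FR3 (SD, n = 5 each), with neighbouring groups overlapping. The log2 difference from CONTROL was 1.58 ± 0.52 over all inseminated sows, and 1.19 ± 0.58, 1.49 ± 0.58 and 2.07 ± 0.59 in FR1, FR2 and FR3. It did not pass the call threshold in any of them, and ran from 1.40 to 1.81 when single libraries were left out.

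For S100G, the calcium buffer, the difference between groups rested on 1 library. CONTROL held 452, 43.8, 3.42, 38.3 and 16.7 CPM, so that the highest and the lowest of all 20 values were both controls. FR1 held 13.0, 56.1, 9.56, 14.2 and 20.2 CPM, FR2 50.6, 30.8, 20.3, 34.4 and 23.6 CPM, and FR3 90.0, 40.6, 17.3, 15.3 and 21.9 CPM. CONTROL_1 was 10.3 times the next control, and the other 4 controls averaged 25.6 ± 18.8 CPM (SD), against 30.5 ± 21.5 CPM in the 15 inseminated libraries. The fitted log2 difference of -1.89 ± 0.65 became 0.23 without CONTROL_1. That library is also the one with few smooth muscle transcripts, and it held 1919 CPM of summed stromal markers, the lowest of the study.

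TRPV6, the calcium channel, was likewise set apart by a single control. CONTROL held 38.1, 152, 5273, 23.0 and 74.1 CPM. FR1 held 13.3, 22.7, 101, 2.48 and 47.5 CPM, FR2 33.4, 71.4, 2.81, 36.7 and 26.7 CPM, and FR3 125, 95.9, 90.7, 9.31 and 97.8 CPM. CONTROL_3 was 34.7 times the next control and 42.3 times the highest inseminated library. The other 4 controls averaged 71.8 ± 57.7 CPM (SD), within the span of the inseminated groups, whose means were 37.4 ± 39.2, 34.2 ± 24.7 and 83.6 ± 43.6 CPM in FR1, FR2 and FR3 (SD, n = 5 each). The fitted log2 difference of -4.55 ± 0.91 became -0.62 without CONTROL_3 and was no longer called, and for FR3 alone it changed from -3.73 ± 1.34 to 0.20. CONTROL_3 did not combine the high channel with a high buffer, since its S100G was the lowest of all libraries.

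**Figure D2:**
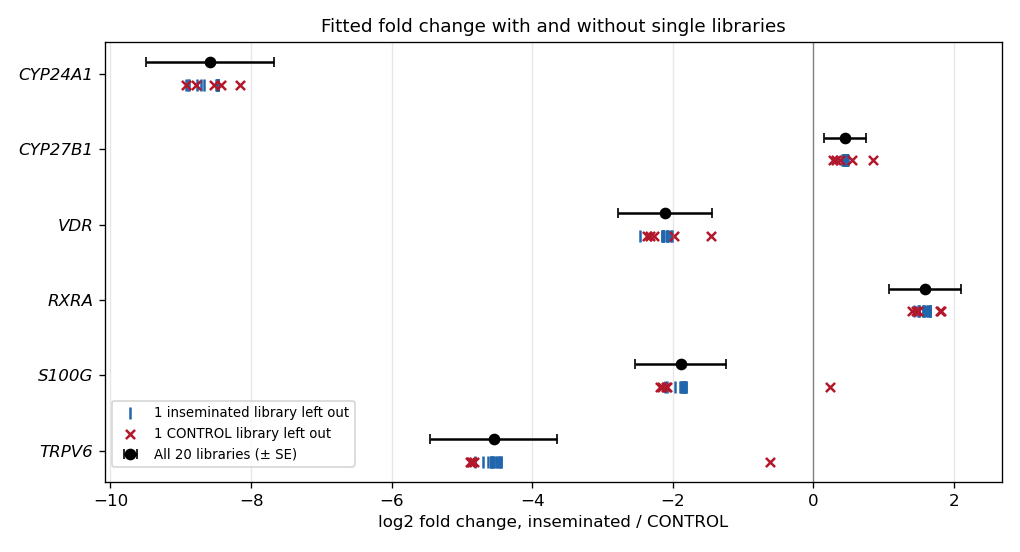
The x axis is the fitted log2 fold change of all inseminated sows against CONTROL, with 1 row for each gene; black points and bars are the fit on 20 libraries with its SE, and the marks beneath are fits with 1 library left out. The cross far from the others is CONTROL_3 for TRPV6 (-0.62) and CONTROL_1 for S100G (0.23), whereas CYP24A1 stays between -8.93 and -8.15.

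By the edgeR test at an adjusted p below 0.05, 3 of the 6 genes were called lower over all inseminated sows, namely CYP24A1, VDR and TRPV6, where 11.1% of all tested genes were called in either direction. In FR1 the call was CYP24A1 alone, where 2.6% of tested genes were called. In FR2 CYP24A1 and TRPV6 were called, against 5.55% of tested genes, and in FR3 CYP24A1 alone, against 4.27%. Nothing is read from these counts, since the genes were proposed with the same contrast known, and the FR1, FR2 and FR3 comparisons share the 5 CONTROL libraries. With limma-voom 2 of the 6 were called over all inseminated sows, beside 1308 of all 17745 tested genes, and 0 in each fraction. With an exact rank-sum test, which was chosen later with the data in view, 1 was called, beside 334 of all tested genes.

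The series asks what the added ejaculate fractions do. Comparisons among the inseminated groups set no level against CONTROL. The CONTROL libraries still enter the filter on low counts and the spread behind each SE and p. None of the 6 genes was called when the intermediate fraction was added (FR2 against FR1, where 0% of tested genes were called), when the poor fraction was added (FR3 against FR2, 0.00564%) or between FR3 and FR1 (0%). By edgeR 0 of the 6 had an unadjusted p below 0.05 in any of the 3 comparisons, and DESeq2 and limma-voom also called 0. RXRA showed the lowest p of them between FR3 and FR1, at a log2 difference of 0.89 ± 0.58 (SE, edgeR adjusted p = 0.648), and was at 0.58 ± 0.57 between FR3 and FR2 (adjusted p = 0.810). VDR stood at -1.05 ± 0.92 between FR3 and FR2 (edgeR adjusted p = 0.788), with 2 FR3 libraries at 0 and FR3_5 the highest of the 15.

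TRPV6 was at 1.29 ± 1.23 between FR3 and FR2 and at 1.16 ± 1.22 between FR3 and FR1 (edgeR adjusted p = 0.806 and 0.773). In its levels, 4 of 5 FR3 libraries lay above every FR2 library, and the remaining one is FR3_4, low in epithelium markers. The same 4 also lay above every FR2 library in summed epithelium markers, at 4405 to 6741 CPM against 2220 to 3844 CPM. The part of epithelium in the TRPV6 levels was not tested. CYP27B1 stood at -0.42 ± 0.36 between FR3 and FR1 (adjusted p = 0.726), with 3 FR1 libraries above all of FR3. S100G stood at 0.71 ± 0.86 in the same comparison (adjusted p = 0.801), and 3 FR1 libraries lay below all of FR3. CYP24A1 was at -0.71 ± 1.43 there (adjusted p = 0.884), on 26 and 13 counts in all. Over these comparisons the standard errors of the 6 genes ran from 0.36 to 1.49 on the log2 scale, so values that miss the threshold do not show equal levels.

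Among the 15 inseminated libraries, RXRA and TRPV6 went up and down together, although they differed in their relation to CONTROL. Their Spearman correlation was 0.88 and their Pearson correlation 0.90 (n = 15, log2 levels), and over all 20 libraries Spearman's rho was 0.33. Both followed the epithelium markers within the inseminated sows, with rho of 0.85 for RXRA and 0.91 for TRPV6 against the markers' mean log2 level (n = 15). Both ran against smooth muscle markers, at -0.82 and -0.67, and against endothelial markers, at -0.85 and -0.73. These libraries share their tissue makeup and depth scaling, so the correlations are a description.

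In the 4 inseminated libraries lowest in epithelium, a set made after the data were seen, RXRA was 50.8 to 57.9 CPM and TRPV6 2.48 to 13.3 CPM. The other 11 stood at 118 to 459 and 22.7 to 125 CPM, with no overlap. How many of all tested genes also part these 2 sets was not counted. Those 4 held 14135 to 28414 CPM of summed smooth muscle markers against 3828 to 17822 CPM in the others, and 216 to 410 CPM of endothelial markers against 73.1 to 219 CPM. CYP24A1, CYP27B1, VDR and S100G overlapped between the same 2 sets of libraries. The controls did not follow this pattern for RXRA, being rich in epithelium markers and low in RXRA. Over all 20 libraries rho with the epithelium markers was -0.02 for RXRA and 0.77 for TRPV6.

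**Figure D3:**
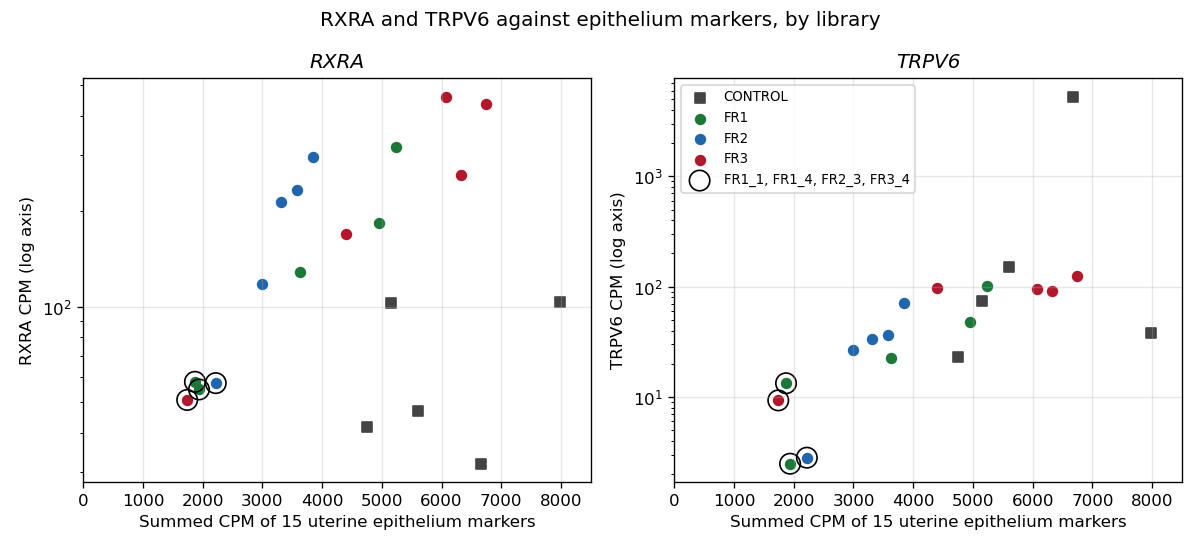
The x axis is the summed CPM of 15 uterine epithelium markers and the y axis (log) the CPM of RXRA, left, and TRPV6, right; each point is a library, squares are CONTROL, and rings mark the 4 inseminated libraries lowest in the markers. RXRA of the inseminated libraries climbs from 50.8 to 459 CPM along the axis while the controls stay at 32.0 to 103 CPM, and TRPV6 of the inseminated libraries follows the same axis, with CONTROL_3 at 5273 CPM above it and CONTROL_1 at 38.1 and CONTROL_4 at 23.0 CPM below it.

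The genes whose levels were most like each of the 6 were taken as the 3 with the highest Spearman correlation over the 20 libraries. RXRA was matched most closely, by RABEP1 (0.99), DGKG (0.98) and LOC110260426 (0.98). TRPV6 came next, with MAPK3 (0.96), C6H1orf210 (0.95) and PREB (0.95). S100G was most like HNRNPU (0.85), CEP57 (0.84) and GATAD2B (0.83), and CYP27B1 most like SDHAF3 (0.83), B3GALNT2 (0.81) and LOC106508844 (0.80). For the genes often at or near 0 the nearest patterns were ALS2CL (0.82), LOC110260772 (0.80) and LOC100153783 (0.79) for CYP24A1, and LOC100153783 (0.77), AQP6 (0.76) and KCTD8 (0.75) for VDR.

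Neighbouring genes were looked up in the RefSeq table of assembly Sscrofa11.1, since the strand setting of the counts is not given in the sources used here and reads of overlapping genes might be shared. In that table TRPV6 overlaps EPHB6, a receptor for ephrins, and TRPV5, the channel most closely related to TRPV6. EPHB6 followed TRPV6 with rho of 0.92 over 20 libraries and 0.94 over the 15 inseminated ones. EPHB6 was 181 CPM in CONTROL_3, 28.5 to 95.1 CPM in the remaining controls and 7.07 to 101 CPM after insemination. TRPV5 was 34.2 CPM in CONTROL_3, while the remaining controls held 0.579 to 2.61 CPM (rho with TRPV6 0.75). Whether reads were assigned between these genes was not tested. S100G lies within CTPS2, which ran from 25.7 to 53.7 CPM with rho of 0.37, and PFDN4 beside CYP24A1 and HDAC7 beside VDR had rho of -0.15 and 0.06. Beside CYP27B1, MARCH9 had rho of 0.51 and METTL1 of 0.31 over 20 libraries, or 0.13 and -0.011 over the 15 inseminated ones.

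**Figure D4:**
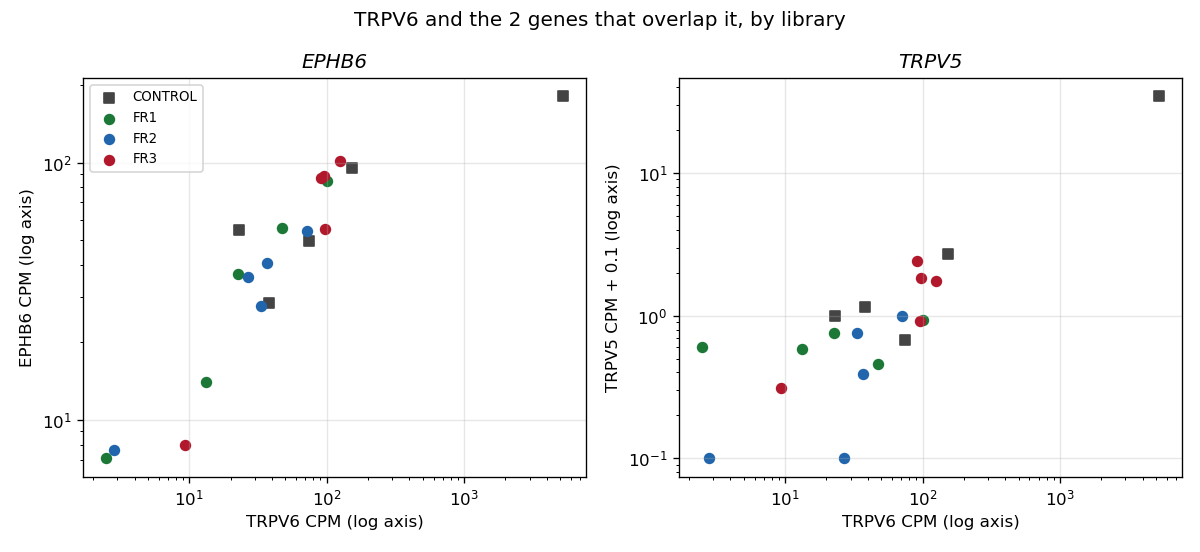
Both axes are logarithmic, with TRPV6 CPM on the x axis and the CPM of EPHB6, left, or of TRPV5 plus 0.1, right, on the y axis; points are libraries coloured by group. CONTROL_3 is the top right point in both panels, at 181 CPM of EPHB6 and 34.2 CPM of TRPV5, and EPHB6 follows TRPV6 in the other libraries.

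Beyond these 6, the pathway was read in 8 lists holding 105 genes, of which 104 are in the table and 96 passed the filter. The lists were drawn up with earlier results of these data known, so their direction is not independent evidence. Against CONTROL, 18 of the 96 were called, 13 lower and 5 higher (edgeR), which is 18.8% of them beside 11.1% of all tested genes. The median log2 difference was -0.09 over the lists and -0.05 over all tested genes. Of the 18, 6 remained called without CONTROL_3 (CALR, CST6, G0S2, NCOA1, SPP1 and TRPM4), 7 without CONTROL_1 and CONTROL_3, and 14 without the 4 inseminated libraries lowest in epithelium markers. With limma-voom 7 of the 96 were called, beside 1308 of all 17745 tested genes. All 7 were among the 18 (ATP2B4, CALR, CST6, LRP5, NCOA1, PDIA3 and TRPM4). Of the 18, the rank-sum test called NCOA1, CST6 and CALR, beside 334 of all tested genes. SPP1 was at -3.52 ± 1.22 with limma-voom (adjusted p = 0.0828) and STC1 at -0.95 ± 1.32 (adjusted p = 0.708).

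Among genes that bring vitamin D into cells and activate it, 2 of 9 tested fell and none rose, beside 11.1% of all genes called in either direction. FDXR, the reductase that passes electrons to mitochondrial hydroxylases including CYP24A1 and CYP27B1, had a log2 difference of -0.86 ± 0.26 (edgeR adjusted p = 0.0379). POR, the electron donor of microsomal cytochromes P450, fell by 0.44 ± 0.12 (adjusted p = 0.0258). Both had their highest value in CONTROL_3, at 56.4 and 146 CPM, and were not called without it. FDXR lost its call in 10 of the 20 fits with 1 library left out, and POR also lost it without CONTROL_1.

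Among the receptor's partners and cofactors, 1 of 13 rose and 1 fell, beside 11.1% of all genes called in either direction. NCOA1, a coactivator of nuclear receptors, was 25.7, 35.2, 26.7, 20.2 and 36.1 CPM in CONTROL and 38.6 to 62.1 CPM in inseminated sows, with all 5 controls below the lowest inseminated library. It rose by a log2 difference of 0.75 ± 0.14 (edgeR adjusted p = 0.0024) and stayed called whichever library was left out. The share of all tested genes that part CONTROL fully from the inseminated libraries was not counted. PDIA3, a disulfide isomerase also described as a membrane binding protein for vitamin D, fell by 0.50 ± 0.14 (adjusted p = 0.0220) and was not called without CONTROL_3 or without CONTROL_4. RXRB and RXRG, the other retinoid X receptors, were not called.

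Among genes known as targets of VDR, 6 of 22 tested fell and 1 rose, beside 11.1% of all genes called in either direction. CST6, a cystatin that inhibits proteases, was 34.5, 79.2, 362, 59.1 and 22.4 CPM in CONTROL against 4.00 to 29.2 CPM in inseminated sows, so 4 of 5 controls lay above all of them and CONTROL_5 lay within. Its log2 difference was -3.24 ± 0.46 (edgeR adjusted p = 0.0003), or -2.06 without CONTROL_3. That is the same division of the controls as in CYP24A1, although in CST6 the inseminated libraries kept a measurable level. SPP1, a secreted phosphoprotein, was 3.67, 11.6, 1354, 749 and 7.32 CPM in CONTROL and 3.09 to 8.88 CPM after insemination (log2 -6.56 ± 0.78, adjusted p = 8.18e-05; -5.46 without CONTROL_3).

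Of the other called targets, CD14, PTHLH and TRPV5 were highest in CONTROL_3. CD14, a co-receptor for bacterial lipopolysaccharide, was 2.72, 4.80, 57.8, 3.67 and 5.30 CPM in CONTROL, and its log2 difference of -1.80 ± 0.47 (edgeR adjusted p = 0.0185) became 0.05 without CONTROL_3. PTHLH, the parathyroid hormone-related protein, was 60.9 CPM in CONTROL_3, and -2.63 ± 0.71 (adjusted p = 0.0224) became -0.41 without it. TRPV5, which overlaps TRPV6 and is uncertain for that reason, was at -3.59 ± 0.81 (adjusted p = 0.0072) and became -0.99 without CONTROL_3. G0S2, an inhibitor of fat breakdown, was near 100 CPM in CONTROL_2, CONTROL_4 and CONTROL_5, which lay above all inseminated libraries, and fell by 1.47 ± 0.41 (adjusted p = 0.0274), a call lost when any 1 of those was left out. LRP5, a coreceptor of Wnt signalling, was the target that rose, by a log2 difference of 0.67 ± 0.20 (adjusted p = 0.0326), and it was not called without CONTROL_2, CONTROL_3 or CONTROL_4.

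In the calcium entry list, 2 of 16 genes fell and 1 rose, beside 11.1% of all genes called in either direction. TRPM4, a channel opened by cytosolic calcium that carries monovalent ions, was 26.6, 45.2, 19.1, 16.2 and 78.7 CPM in CONTROL and 57.9 to 114 CPM in inseminated sows. Its log2 difference was 1.17 ± 0.28 (edgeR adjusted p = 0.0101), with 4 controls below all inseminated libraries and CONTROL_5 among them. TRPV2, a cation channel, fell by 0.49 ± 0.15 (adjusted p = 0.0427), a call held in 4 of 20 fits with 1 library left out. The store-operated channel genes ORAI1, ORAI2, ORAI3, STIM1 and STIM2 were not called.

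Among calcium buffers and sensors, 2 of 9 tested fell and none rose, beside 11.1% of all genes called in either direction. CALR, the calcium-binding chaperone of the endoplasmic reticulum, was 767, 746, 695, 969 and 697 CPM in CONTROL and 403 to 599 CPM in inseminated sows, with all 5 controls above. Its log2 difference was -0.70 ± 0.11 (edgeR adjusted p = 0.0004), and it was called whichever library was left out. As for NCOA1, the share of all tested genes parted in this way was not counted. SRI (sorcin), a regulator of calcium release, fell by 0.48 ± 0.14 (adjusted p = 0.0321) and was highest in CONTROL_3, at 184 CPM. It was not called without CONTROL_3, FR2_4 or FR3_2. CALB1, the larger calbindin of other calcium-transporting epithelia, had no count in any library.

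Of 17 tested genes of calcium extrusion and stores, 1 rose and none fell, beside 11.1% of all genes called in either direction. ATP2B4, a plasma membrane calcium pump, was 65.2 to 188 CPM in CONTROL and 91.4 to 1007 CPM in inseminated sows, and its log2 difference was 1.64 ± 0.49 (edgeR adjusted p = 0.0352). That call was lost without CONTROL_3, CONTROL_4, FR1_2, FR2_1 or FR2_2. In FR1_1, FR1_4, FR2_3 and FR3_4, the inseminated libraries lowest in epithelium markers, ATP2B4 was 132, 107, 91.4 and 175 CPM, within the CONTROL range. The other 11 held 330 to 1007 CPM. Of 7 tested calcium hormones and receptors, 2 fell and 1 rose, beside the same 11.1%. STC1, a secreted stanniocalcin that regulates calcium and phosphate, was 0.377, 22.1, 143, 0.587 and 0.0232 CPM in CONTROL, and -4.67 ± 0.95 (adjusted p = 0.0038) became -2.15 without CONTROL_3, with the call lost. Its relative STC2 was 0 to 0.409 CPM in CONTROL and 0.220 to 3.35 CPM in inseminated sows and rose by 3.21 ± 0.87 (adjusted p = 0.0231), again not called without CONTROL_3. In the same 4 libraries low in epithelium markers STC2 was 0.220 to 0.355 CPM, against 0.492 to 3.35 CPM in the other 11. The part of epithelium in the ATP2B4 and STC2 levels was not tested. PTHLH is the other gene of the hormone and receptor list that fell.

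None of 5 steroid receptor genes was called by edgeR, DESeq2 or limma-voom, and 1 of them, NR3C1, had an unadjusted edgeR p below 0.05. NR3C1, the glucocorticoid receptor, was at -0.82 ± 0.31 (edgeR adjusted p = 0.0995) and the progesterone receptor PGR at -0.73 ± 0.36 (adjusted p = 0.203). PGR ran from 10.0 to 100 CPM over the 5 controls and from 15.3 to 51.1 CPM over the inseminated libraries, so the controls alone spanned more than all inseminated sows.

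**Figure D5:**
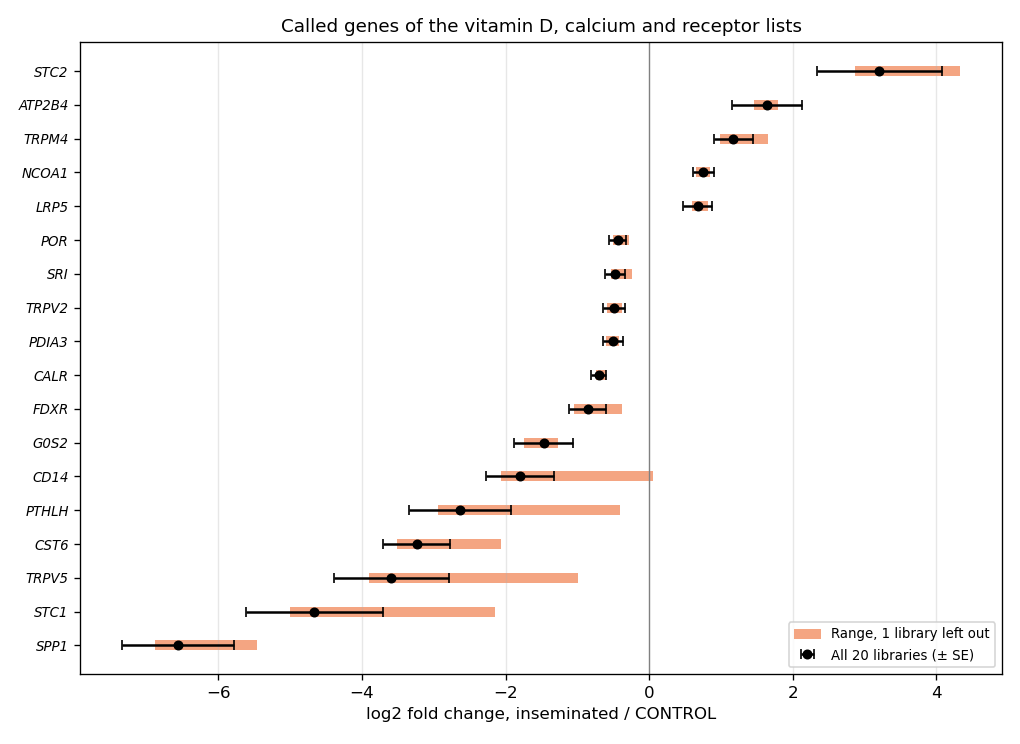
The x axis is the fitted log2 fold change of all inseminated sows against CONTROL for the 18 called genes of the 8 lists; points and bars are the fit on 20 libraries with its SE, and shaded bands span the 20 fits with 1 library left out. The bands of CD14, PTHLH, TRPV5 and STC1 reach far toward 0 (0.05, -0.41, -0.99 and -2.15), while those of NCOA1 and CALR stay close to their points.

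By fraction, 3 of the 96 pathway genes were called in FR1 against CONTROL (SPP1, CST6 and CALR, all lower), beside 2.6% of all tested genes. In FR2 5 were called, with SPP1, CST6, CALR and TRPV5 lower and NCOA1 higher, beside 5.55%. In FR3 7 were called, with SPP1, CST6 and CALR lower and NCOA1, TRPM4, ATP2B4 and STC2 higher, beside 4.27%. These calls rest on the fit of all 20 libraries. With only the libraries of the groups compared, edgeR called 0, 1 and 0 of all tested genes in FR1, FR2 and FR3. DESeq2 called 14, 19 and 15 of the 96 in FR1, FR2 and FR3, beside 1450, 2125 and 1876 of all 17745 tested genes. With limma-voom 3, 4 and 4 were called, beside 185 of all tested genes in FR1 and 295 in FR3. Between the inseminated groups edgeR called 0 of the 96 in each comparison, DESeq2 and limma-voom also called 0, and 0, 4 and 9 had an unadjusted p below 0.05 in FR2 against FR1, FR3 against FR2 and FR3 against FR1.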

How the data were processed

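RNA from the uterus of 20 sows was captured with poly-T beads and sequenced in pairs on a NovaSeq, per the labels' protocols. CASAVA, STAR 2.7.9a and Salmon 1.10.1 are named in the submitters' processing notes. Genome build, annotation and strand setting: not given in the sources used here. Values deposited by the authors are estimated counts for each gene (the expected counts that Salmon writes), with no library scaling. Of these values 87.2% are whole, and all were rounded to whole counts. Of 30369 rows, 24 naming no gene (0.0036% to 0.0133% of a library's counts) were left out, and 30328 of 30345 identifiers matched their symbol in the RefSeq table of Sscrofa11.1. Columns give a group and a number from 1 to 5 and were tied to groups, not to sows. No 2 libraries agreed within sampling noise (lowest chi-square 35.2 per gene over 190 pairs).

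All 20 libraries entered 1 edgeR 4.0.16 quasi-likelihood fit (R 4.3.3, 2-sided, TMM factors, filterByExpr, 17745 genes, 16 residual degrees of freedom). A gene was called at a Benjamini-Hochberg adjusted p below 0.05 over all genes tested. SE is the absolute log2 difference divided by the square root of F. Fitted differences compare mean counts, so 1 high library can set them. The members and lists were chosen with earlier results of these data known. Named were the 6 members, up to 6 called genes with the smallest p in each pathway list (2 that did not pass where none was called), and 3 genes of most like pattern per member; LRP2 and the pathway genes named by fraction were added after their values were seen. Alternatives were DESeq2 1.42.0, voom of limma 3.58.1, relative log expression factors in edgeR, other filters, only the groups compared and leaving out each library; those leaving out 2 or 4 libraries and the exact rank-sum test were added after the data were seen. The edgeR step was tested on simulated counts. P-values judge a difference between groups against the spread between these libraries.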

Additional observations from a re-analysis of the deposited data

Results flagged for a closer look

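In each group of 5 libraries, the gap between the highest or lowest library and its nearest neighbour was compared with the group's whole range, and a library was picked out when the gap passed 0.71 of that range (Dixon's test). Of 24 groups (6 genes in 4 groups), 3 held such a library, where chance picks out about 1 in 20 if values are normally distributed. For TRPV6, CONTROL_3 at 5273 CPM stood 0.975 of the range away from CONTROL_2 at 152 CPM. For S100G, CONTROL_1 at 452 CPM stood 0.910 of the range from CONTROL_2 at 43.8 CPM. For S100G again, FR1_2 at 56.1 CPM stood 0.772 of the range from FR1_5 at 20.2 CPM. These ratios are on CPM, which is skewed. On log2 (CPM + 0.5), a scale added after the data were seen, they were 0.654, 0.489 and 0.583 in the same order, so none passed. On that scale 1 of the 24 groups passed, TRPV6 in FR3, where FR3_4 at 9.31 CPM lay below the other 4 libraries at 90.7 to 125 CPM.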

How the results depend on the processing

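For all inseminated sows against CONTROL, the alternatives counted here leave out the rank-sum test, and 20 of them are fits with 1 library left out. Over these, CYP24A1 (26 of 26), CYP27B1 (27 of 27), VDR (26 of 26), RXRA (27 of 27) and TRPV6 (27 of 27) kept their sign. CYP24A1 was called in 26, VDR in 9, RXRA in 8, S100G in 5 and TRPV6 in 23 of the 26 that gave it an adjusted p. These fits reuse the same libraries, and the members were proposed with this contrast known. Nothing is read from these counts. Genes called for FR1, FR2 and FR3 against CONTROL were 1450, 2125 and 1876 with DESeq2 (of the 6 members 2, 1 and 3), and DESeq2 called 21 between FR3 and FR2 and 12 between FR3 and FR1. With limma-voom 1308 genes were called over all inseminated sows, 185 in FR1 and 295 in FR3, with 0 members in FR1, FR2 and FR3; S100G stood at -0.43 and TRPV6 at -2.20, and 2 fraction differences changed sign (TRPV6 in FR2 against FR1, 0.14; S100G in FR3 against FR2, -0.060). The stricter filter removed CYP24A1 and VDR, leaving 1, 0, 1 and 0 members called over all inseminated sows, FR1, FR2 and FR3. With only the libraries of the groups compared 0, 1 and 0 genes and 0 members were called in FR1, FR2 and FR3. Without the 4 libraries lowest in epithelium markers 22 genes and 0 members were called in FR1, 474 genes in FR2, 2 members in FR3 and 0 genes between FR3 and FR2. Without CONTROL_1 and CONTROL_3, genes called were 1103, 272, 600 and 468 over all, FR1, FR2 and FR3, with 1 member in FR2, and VDR, S100G and TRPV6 stood at -2.69, -0.17 and -0.83. The rank-sum test called 334 genes and 1 member. Where no library or gene count is named as the reason, the cause was not tested.

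Leaving out 1 library at a time, genes called ranged from 988 to 2730 over all inseminated sows, 99 to 1372 in FR1, 309 to 1881 in FR2, 58 to 1869 in FR3 and 0 to 1 between FR3 and FR2, and members called from 2 to 5 over all and from 1 to 2 in FR1, FR2 and FR3. The log2 differences over all inseminated sows ranged from 0.28 to 0.85 for CYP27B1, -2.47 to -1.45 for VDR, -2.19 to 0.23 for S100G and -4.89 to -0.62 for TRPV6. Between fractions CYP24A1 ranged from -1.37 to 0.65 (FR2 against FR1), -1.62 to 0.26 (FR3 against FR1) and -1.30 to 0.66 (FR3 against FR2), CYP27B1 from -0.20 to 0.036 and TRPV6 from -0.59 to 0.67 (FR2 against FR1), and S100G from -0.43 to 0.44 (FR3 against FR2). No paired analysis was possible because the labels number the sows from 1 to 20 with no number shared between groups, and the columns' numbers 1 to 5 are not tied to sows.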

Other observations

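LRP2 (megalin), the receptor through which epithelia take up vitamin D bound to its carrier protein, was looked at after its values were seen. It averaged 503 ± 498 CPM in CONTROL, 864 ± 789 in FR1, 982 ± 547 in FR2 and 2045 ± 1907 CPM in FR3 (SD, n = 5 each), with a range of 45.8 to 1269 CPM in CONTROL and 31.7 to 4113 CPM in inseminated sows. The difference from CONTROL was not called (log2 1.26 ± 0.94).

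Per 1000 CPM of summed epithelium markers, RXRA ran from 4.79 to 20.0 CPM in CONTROL and from 25.9 to 77.0 CPM in the inseminated libraries, so that all 5 controls lay below all 15 inseminated libraries, against 3 of 5 on the unscaled level. This scaling was chosen after the values were seen and carries no test. The marker sum had a median of 5603 CPM in CONTROL, 3631 in FR1, 3307 in FR2 and 6073 CPM in FR3. Dividing by it thus lifts FR1 and FR2 relative to CONTROL. Within CONTROL, RXRA ran against the markers' mean log2 level (Spearman's rho -0.8, n = 5). How many of all tested genes separate on this scale was not counted. CYP24A1 on the same scale ran from 0.0540 to 9.95 CPM in CONTROL and from 0 to 0.0787 CPM in inseminated libraries, with 4 controls above all of them, as without the scaling.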
